A study of Homarus americanus with 19 samples.

Results

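Described here are 150 Seq2Fun ortholog groups of the American lobster (*Homarus americanus*) whose expression was lowest in the larvae with the most noncoding RNA. For each larva, the noncoding share was taken as the percent of its Kallisto counts on RefSeq transcripts with an XR accession, the class that RefSeq gives to transcripts not annotated as coding. Ortholog group counts were scaled to the larva's Seq2Fun total as CPM and into log2(CPM + 0.5), and the mean of the treatment group was subtracted from both measures. Among 7860 eligible groups, of 13933 in all, the members are the 150 with the most negative Pearson r over the 19 larvae. Eligible groups had a mean of at least 5 CPM over all larvae and a mean below 1000 CPM in control larvae. The members were thus chosen from measured values, and their r is a description that was not tested.

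RNA-seq had been run on whole larvae, 1 library per larva, in 3 treatment groups. Larvae were exposed for 24 h to 1-methylnaphthalene at 0.3 mg/L as a positive control (n = 6) or to a 72% water accommodated fraction of crude oil (WAF, n = 7), and control larvae (n = 6) stayed in seawater passed through a 0.22 µm filter. The larvae were called stage I in the study, whereas the sample labels give embryonic day 9 for all of them. The 1-methylnaphthalene concentration is that of the labels and methods, and a supplementary note gives a higher one. Nothing in the labels names a tank, brood or sequencing batch, so p-values measure the spread between these larvae. In whole larvae, fewer cells of a type and less RNA per cell cannot be told apart.

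A Seq2Fun ortholog group collects proteins of many species that descend from a common ancestral gene, and reads are assigned to it after translation, so it counts protein-coding reads only. Long noncoding RNAs are transcripts without a recognised protein product, and many known ones act in the nucleus on transcription or chromatin, while the function of most is unknown. Named members include troponin C, which binds calcium on the thin filament of muscle and so switches contraction, and enzymes that signal by adding or removing phosphate on proteins.

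The noncoding share lay between 14.9% and 35.7% of Kallisto counts. In methylnaphthalene larvae it had a lowest value of 15.2%, a median of 21.4% and a highest value of 35.1%. In WAF larvae these values were 14.9%, 33.2% and 35.7%, and in control larvae they were 17.8%, 21.9% and 28.9%. The 3 ranges overlapped, and within each group the larvae stood on both sides of a gap, with 8 larvae at or below 19.2% and 11 at or above 24.6%. The share averaged 23.4% ± 8.58 in methylnaphthalene larvae, 28.9% ± 8.56 in WAF larvae and 22.4% ± 4.45 in control larvae (SD, n = 6, 7 and 6). No difference between group means had an adjusted p below 0.05 in exact two-sided permutation tests. The difference was 1.03 percentage points for methylnaphthalene against control (exact permutation p = 0.803, adjusted p = 0.803 over the 3 contrasts). For WAF against control it was 6.53 points (exact permutation p = 0.118, adjusted p = 0.355). It was -5.50 points for methylnaphthalene against WAF (exact permutation p = 0.259, adjusted p = 0.389). Computed without LOC121857831, the long noncoding RNA gene with the most counts, the share differed by 0.392, 0.663 and -0.271 points in these contrasts (exact permutation, adjusted p = 0.740 in each).

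**Figure D1:**
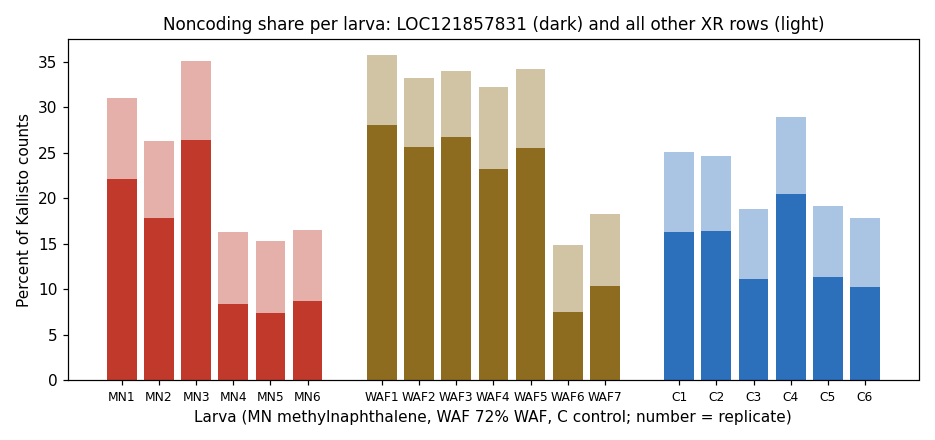
Noncoding share of each larva in percent of its Kallisto counts (y axis), by larva and treatment group (x axis); the dark part of a bar is LOC121857831 and the light part all other XR transcripts. Replicates 4 to 6 of methylnaphthalene, 6 and 7 of WAF and 3, 5 and 6 of control were at or below 19.2%, and the dark part varied most.

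Most of this share came from 1 gene. LOC121857831, annotated as a long noncoding RNA with no described function, held 66.7% of all XR counts, and its transcript XR_006087277.1 took between 7.44% (methylnaphthalene replicate 5) and 28.0% (WAF replicate 1) of a larva's counts. LOC121871017 held 12.2% of XR counts and LOC121876248 held 4.84%. By gene class, 76.3% of XR counts lay on long noncoding RNA genes, 13.3% on transcribed pseudogenes, 7.56% on XR transcripts of protein-coding genes and 2.75% on ribosomal RNA genes. A transcript of LOC121876248, XR_006090739.1, went the other way, with a correlation with the noncoding share of r = -0.93 (19 larvae, centred by group). It took between 0.00376% and 0.996% of counts. The other transcript of that gene listed among the most abundant, XR_006090735.1, took between 0.429% and 1.07% and had r = 0.75.

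Over the 7860 eligible groups, r with the noncoding share was spread towards both ends. Its median was -0.57, 65.6% of the groups had a negative r, 1059 groups (13.5%) lay below -0.9 and 644 above 0.9. The members are the extreme of a broad tail, with r between -0.98 and -0.95 and a median of -0.96. The r over eligible groups depended on the scaling. With library sizes scaled by TMM, a normalization that centres most groups on no change, its median was -0.05, and that of the members -0.94. With Kallisto totals in place of Seq2Fun totals these medians were -0.86 and -0.98. No step in r marks the threshold. Just inside it were s2f_0000306001, s2f_0005110001 and s2f_0000014009 (MYO1C, an unconventional myosin that links membranes to actin), with r of -0.951997, -0.951806 and -0.951709. Just outside it were s2f_0002350002, s2f_0002316001 and s2f_0000073011, with r of -0.951615, -0.951582 and -0.951512.

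**Figure D2:**
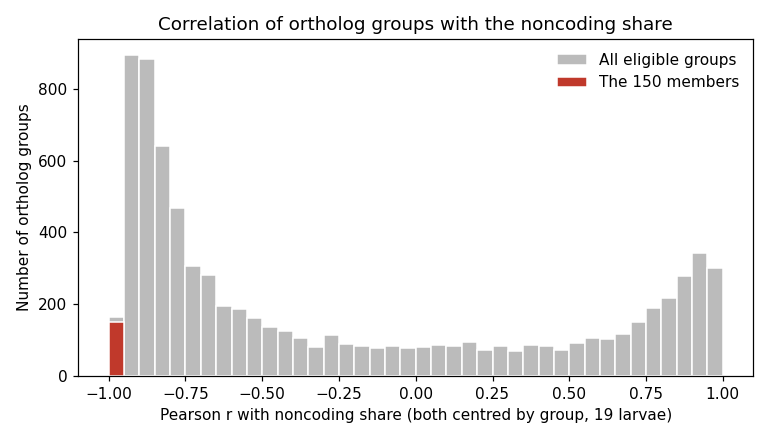
Number of ortholog groups (y axis) by Pearson r between log2(CPM + 0.5) and the noncoding share, both centred by treatment group, over 19 larvae (x axis); all 7860 eligible groups are grey and the 150 members red. The members fill most of the lowest bin, and 1059 eligible groups lie below -0.9.

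Summed over the members, the level was between 4504 CPM in methylnaphthalene replicate 3 and 15572 CPM in WAF replicate 6, or 0.450% and 1.56% of Seq2Fun counts. In the other methylnaphthalene larvae the sum was 6189 CPM (replicate 1), 6735 (replicate 2), 14602 (replicate 4), 14200 (replicate 5) and 13291 (replicate 6). The other WAF larvae had 4862, 5724, 5234, 5682, 5490 and 12406 CPM (replicates 1 to 5 and 7), and the control larvae had 8349, 7982, 11546, 6368, 12650 and 14832 CPM (replicates 1 to 6). The ranges of the 3 groups overlapped widely, and in each group the larvae with high sums were those with a noncoding share at or below 19.2%. The members' mean log2 level had r = -0.99 with the noncoding share and r = -0.99 with the percent of LOC121857831 alone. With the share computed without LOC121857831 it had r = -0.92. These correlations are over 19 larvae, share the same libraries, and in part restate the choice of members.

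**Figure D3:**
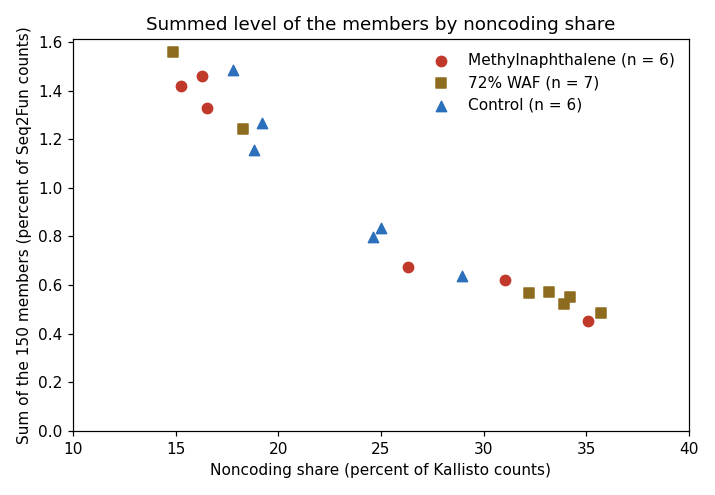
Summed level of the 150 members in percent of Seq2Fun counts (y axis) against the noncoding share in percent of Kallisto counts (x axis), 1 point per larva, with methylnaphthalene as circles, WAF as squares and control as triangles. The points of the 3 groups lie along 1 falling band, between 1.56% and 0.450% of Seq2Fun counts.

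Depth and read assignment moved with the members as well. Kallisto totals were between 14295653 and 44466373 counts and had r = 0.27 with the members' mean log2 level. Seq2Fun totals were between 4580939 and 22681602 counts and had r = 0.61. Seq2Fun counts in percent of the Kallisto total, between 32.0% and 51.0%, had r = 0.98, and the percent of Seq2Fun counts in groups of at least 1000 CPM in control larvae had r = -0.90. The part of these measures in the members' pattern was not tested.

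Within each treatment group, r was negative for every member. These are the values the rule used, so the choice of members nearly fixes this sign. The median r of the members was -0.98 within methylnaphthalene larvae (n = 6), -0.97 within WAF larvae (n = 7) and -0.95 within control larvae (n = 6), against -0.69, -0.58 and -0.58 over all eligible groups. On each side of the gap between the larvae, r was weaker. There the group means were not subtracted, and a narrower range of the share can lower r by itself. How much of r came from the gap was not tested. Among the 8 larvae below it, r was negative for 144 members with a median of -0.72 and values up to 0.58. Among the 11 larvae above it, r was negative for all 150 members with a median of -0.80 and values up to -0.19. Over the eligible groups the medians in these sets of larvae were 0.02 and -0.15. Leaving out the 2 larvae farthest from the median of the centred share, WAF replicates 6 and 7, gave a median r of -0.95 for the members, with values from -0.98 to -0.91.

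Members differed in how steeply they fell. The median slope was -0.77 on the log2 scale per 10 percentage points of noncoding share, from -2.12 to -0.33, against -0.20 over the other eligible groups. With library sizes scaled by TMM, the median slope of the members was -0.58 and that of all eligible groups -0.02. The steepest member was s2f_0381039001, which has no name in the tables used here. It had 2.42, 5.50, 2.44, 47.3, 30.9 and 51.1 CPM in methylnaphthalene replicates 1 to 6 and 0.873, 2.81, 1.96, 2.41, 2.55, 39.3 and 12.6 CPM in WAF replicates 1 to 7, against 8.12, 8.48, 21.9, 4.28, 33.2 and 35.2 CPM in control replicates 1 to 6. Its highest value was 58.6 times its lowest. The flattest member, s2f_0000080009, lay between 38.4 CPM in methylnaphthalene replicate 3 and 71.0 CPM in control replicate 6, a ratio of 1.85. Its general ortholog group holds an RCC1 and BTB domain-containing protein.

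Across the members the ratio of highest to lowest larva had a median of 3.67, against 2.57 over the other eligible groups. Their mean level had a median of 34.8 CPM (5.91 to 754 CPM), against 24.7 CPM, and the lowest count of a member in a larva was 4. The same few larvae held the extremes. The lowest level fell in methylnaphthalene replicate 3 for 84 members, in WAF replicate 1 for 45, in WAF replicate 5 for 10, in WAF replicate 3 for 8, in control replicate 4 for 2 and in WAF replicate 2 for 1. The highest level fell in methylnaphthalene replicate 5 for 54 members, in WAF replicate 6 for 52, in control replicate 6 for 25 and in methylnaphthalene replicate 4 for 13. The other 6 had it in methylnaphthalene replicate 6 (3), control replicate 3 (2) or WAF replicate 7 (1). Over the 11175 pairs of members, r between their centred levels had a median of 0.95, from 0.85 to 0.99, which follows in part from the shared choice on r.

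The 10 members with the most negative r include 9 without a name. The first, s2f_0005276002, had a lowest, median and highest level of 11.8, 28.8 and 46.6 CPM in methylnaphthalene larvae, 10.9, 13.1 and 47.0 CPM in WAF larvae, and 14.4, 24.3 and 41.6 CPM in control larvae. The next, s2f_0000904002, was the most abundant member with a mean of 754 CPM over all larvae. It had 221, 839 and 1358 CPM in methylnaphthalene larvae, 173, 254 and 1480 CPM in WAF larvae, and 345, 914 and 1481 CPM in control larvae. In both members the WAF median lay near the lowest larva, since 5 of 7 WAF larvae were low. The others of these 10 were s2f_0000248008, s2f_0005909004, s2f_0001268004, s2f_0000722002, s2f_0000227001, s2f_0006084002 and s2f_0000235005, with means between 14.4 and 95.9 CPM, and PRKG2. Of these, s2f_0000227001 shares its general ortholog group with ubiquitin-conjugating enzyme E2 D2, an enzyme that passes ubiquitin to substrates.

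Names were at hand for 15 of the members (10%), against 15.95% of the other eligible groups. They come from the supplementary tables of the study's case studies, which are partial and sorted by significance, so the named members are not a random sample. Of the members, 136 (90.7%) belonged to general ortholog groups that the database splits into subgroups, against 82.5% of the other eligible groups. The members fell in 142 general groups, split or not, and 6 of these held more than 1 member. For 64 members in 59 general groups, some subgroup carried a name, which need not be the name of the member itself.

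Among signalling enzymes, 3 of 60 named eligible kinases and phosphatases were members. Among all eligible groups with a descriptive name, 15 were members and 980 were not. Over these 60 enzymes, the median r was -0.79, and 53 were negative, while over all eligible groups the median was -0.57 and 65.6% were negative. PRKG2, described as cGMP-dependent protein kinase 1, which phosphorylates proteins in response to cyclic GMP, had 24.6, 64.8 and 94.7 CPM as lowest, median and highest level in methylnaphthalene larvae, 27.8, 34.8 and 95.0 CPM in WAF larvae and 34.6, 58.4 and 90.7 CPM in control larvae. RPS6KA2, a ribosomal protein S6 kinase that acts downstream of MAP kinases, had 24.3, 56.2 and 90.3 CPM in methylnaphthalene larvae, 23.8, 32.6 and 78.9 CPM in WAF larvae and 29.5, 50.4 and 69.6 CPM in control larvae. The serine/threonine-protein phosphatase alpha-2 isoform (s2f_0000252013), a catalytic subunit that removes phosphate from proteins, had 119, 207 and 274 CPM in methylnaphthalene larvae, 121, 146 and 262 CPM in WAF larvae and 137, 200 and 263 CPM in control larvae. The ranges of the 3 treatment groups overlapped for each of these enzymes. The general group of PRKG2 and RPS6KA2, which collects several protein kinase families, held 3 members among its 18 eligible subgroups, with a median r over those 18 of -0.86 and a highest r of 0.83.

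Of the list of muscle and myosin names, 2 of 9 named eligible groups were members, and all 9 had a negative r with a median of -0.86. Over all eligible groups 65.6% had a negative r, with a median of -0.57. Among all eligible groups with a descriptive name, 15 were members and 980 were not. Only troponin C, obscurin (r = -0.86) and muscle actin (r = -0.56) on the muscle and myosin list are proteins of the contractile apparatus. The others were filamin-A (r = -0.86), which crosslinks actin, and the myosins MYO1C, MYO1D, MYO9A, MYO1E and MYO3B (r between -0.95 and -0.46), which are not sarcomeric. Troponin C (s2f_0000018042) had 87.4, 490 and 1079 CPM as lowest, median and highest level in methylnaphthalene larvae, 143, 200 and 1213 CPM in WAF larvae and 434, 814 and 1380 CPM in control larvae. The lowest control larva was above 3 of 6 methylnaphthalene larvae and 5 of 7 WAF larvae, yet the ranges overlapped. Its slope of -1.64 on the log2 scale per 10 percentage points was the third steepest among the members. Over the 7 eligible subgroups of its general group, named or not, the median r was only -0.27 and the highest 0.05. MYO1C, the other member on this list, had 29.1, 58.6 and 139 CPM in methylnaphthalene larvae, 13.3, 20.7 and 84.9 CPM in WAF larvae and 15.5, 26.3 and 40.9 CPM in control larvae. High methylnaphthalene larvae thus exceeded every control larva for MYO1C, while the low ones lay within the control range. The general group of MYO1C had a median r of -0.80 over its 14 eligible subgroups and a highest r of 0.79.

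Some unnamed members share a general ortholog group with muscle or cell adhesion proteins. They were picked out after their values were seen, and nothing was tested on them as a set. The subgroup s2f_0000285013, in a group with PDZ and LIM domain proteins, averaged 555 ± 257 CPM in methylnaphthalene larvae, 460 ± 256 CPM in WAF larvae and 617 ± 250 CPM in control larvae (SD, n = 6, 7 and 6). The subgroup s2f_0001574003, in a group with LIM-only proteins of the FHL type, averaged 58.1 ± 46.5, 36.7 ± 44.7 and 43.5 ± 31.5 CPM in the same order of treatments, and s2f_0004760002, in a group with a trimeric intracellular cation channel, averaged 84.6 ± 60.9, 59.0 ± 58.1 and 85.3 ± 51.8 CPM. The SD within each treatment was large relative to the mean in these subgroups. In a group with protein unc-45 homolog B, a chaperone of myosin, s2f_0002614001 averaged 68.2 ± 31.4 CPM in methylnaphthalene larvae, 55.9 ± 26.1 CPM in WAF larvae and 83.4 ± 22.9 CPM in control larvae. Members in groups with proteins of integrin adhesions were s2f_0000582007 (integrin beta, mean over all larvae 141 CPM), s2f_0003017002 (fermitin, 49.0 CPM), s2f_0003117004 (gamma-parvin, 17.1 CPM) and s2f_0002899002 (integrin beta-1-binding protein 2, 7.93 CPM). Their r lay between -0.97 and -0.95.

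Of the trafficking and cytoskeleton members, RAB11A, a small GTPase of recycling endosomes, had 29.6, 52.3 and 87.0 CPM as lowest, median and highest level in methylnaphthalene larvae, 28.2, 37.0 and 70.7 CPM in WAF larvae and 29.4, 45.7 and 62.9 CPM in control larvae. The Arf-GAP with dual PH domains (s2f_0003418002), which belongs to proteins that switch off Arf GTPases, had 10.5, 22.1 and 38.6 CPM in methylnaphthalene larvae, 4.96, 6.99 and 27.3 CPM in WAF larvae and 5.51, 11.1 and 20.1 CPM in control larvae. A member of the Wiskott-Aldrich syndrome protein family (s2f_0001102007), whose proteins promote actin branching, averaged 17.1 ± 6.13 CPM in methylnaphthalene larvae, 14.4 ± 5.67 CPM in WAF larvae and 18.3 ± 4.60 CPM in control larvae. The ranges of the treatment groups overlapped in these members too. A pair of members came from the Rab group of 8 eligible subgroups (s2f_0000039007 and s2f_0000039013, means of 24.5 and 25.8 CPM), and another pair from the semaphorin group of 4 (s2f_0000107026 and s2f_0000107029, means of 58.8 and 61.0 CPM). Semaphorins are guidance cues for growing axons and migrating cells.

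Metabolic enzymes made up a further part of the named members. Cysteine dioxygenase type 1 (s2f_0005608001), which starts the breakdown of cysteine towards taurine, had 15.2, 32.2 and 60.5 CPM as lowest, median and highest level in methylnaphthalene larvae, 8.95, 13.8 and 43.2 CPM in WAF larvae and 7.55, 18.2 and 26.9 CPM in control larvae. A carnitine O-acetyltransferase-like group (s2f_0000709006, listed under the symbol CHAT), whose enzyme class moves acetyl groups between CoA and carnitine, had 34.3, 71.8 and 91.1 CPM in methylnaphthalene larvae, 26.3, 33.8 and 79.8 CPM in WAF larvae and 30.4, 49.2 and 61.4 CPM in control larvae. Methylnaphthalene medians were the highest of the 3 treatments for both enzymes, with overlapping ranges. IMPDH2, the enzyme that commits purine synthesis to guanine nucleotides, had 41.9, 69.3 and 93.9 CPM in methylnaphthalene larvae, 46.3, 51.0 and 78.2 CPM in WAF larvae and 46.4, 75.1 and 85.7 CPM in control larvae. ISYNA1, which makes inositol phosphate from glucose 6-phosphate, averaged 11.99 ± 4.71 CPM in methylnaphthalene larvae, 10.4 ± 4.65 CPM in WAF larvae and 12.5 ± 2.29 CPM in control larvae (SD, n = 6, 7 and 6).

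The last 3 named members were of other kinds. An F-box/LRR-repeat protein 2 group (s2f_0002897001), whose class selects proteins for ubiquitination, had 58.4, 86.6 and 135.1 CPM in methylnaphthalene larvae, 56.6, 68.7 and 147 CPM in WAF larvae and 107.7, 139 and 174 CPM in control larvae. In 4 of 6 methylnaphthalene larvae and 5 of 7 WAF larvae it lay below the lowest control larva, and the ranges overlapped. A proline-rich protein 36-like group (s2f_0382075001) had 35.6, 92.7 and 144 CPM in methylnaphthalene larvae, 45.5, 61.3 and 163 CPM in WAF larvae and 98.5, 126 and 188 CPM in control larvae. A centrosomal and chromosomal factor-like group (CORTO), known in Drosophila as a partner of chromatin regulators, averaged 20.5 ± 12.4 CPM in methylnaphthalene larvae, 10.4 ± 7.03 CPM in WAF larvae and 11.6 ± 4.31 CPM in control larvae.

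**Figure D4:**
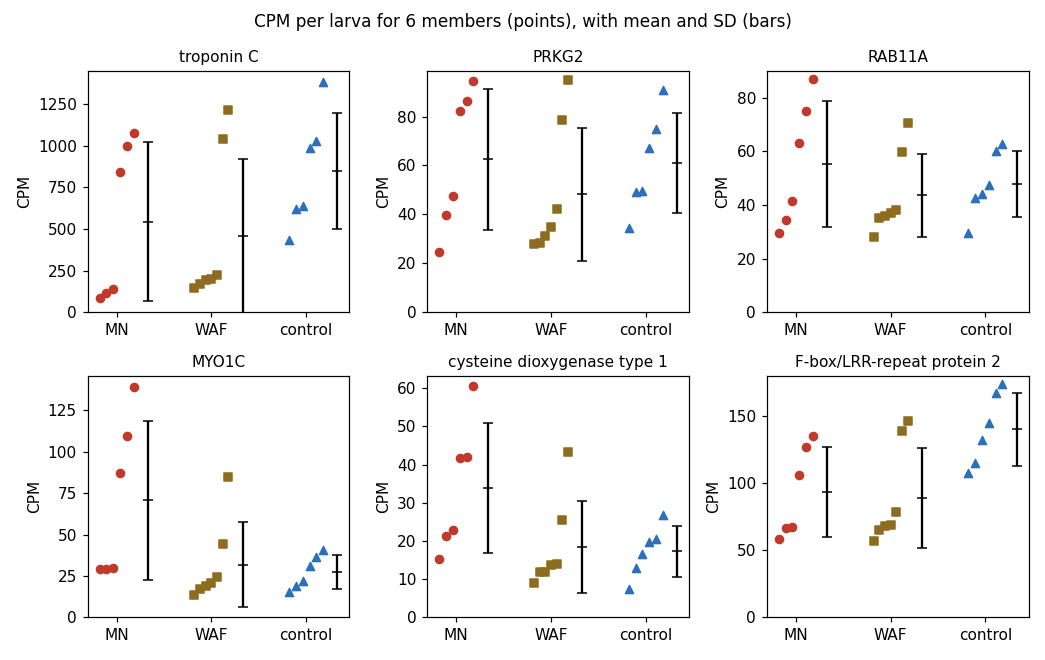
Level in CPM (y axis, from 0) of 6 named members in each larva, by treatment (x axis; MN, methylnaphthalene, n = 6; WAF, n = 7; control, n = 6); points are larvae, and the bar beside them is the mean with the SD. For troponin C, 3 methylnaphthalene and 5 WAF larvae lay below the lowest control larva at 434 CPM.

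The other lists of named groups held no members other than RPS6KA2, which the word ribosomal placed among cytosolic ribosomal proteins although it is a kinase. None of 43 transporters was a member (median r -0.80), nor any of 40 transcription factors (median r -0.68), 29 lipid metabolism groups (median r -0.73), 22 digestive enzymes (median r -0.69), 21 detoxification groups (median r -0.52) or 7 cuticle and chitin groups (median r -0.77). All 9 named groups of the respiratory chain and ATP synthase had a positive r, with a median of 0.84 and a lowest value of 0.35. The lists were drawn from the same partial tables of names, and their r is on the CPM scale of the rule. On that scale the median r over all eligible groups was -0.57, and 65.6% were negative. Few named groups were members at all, with 15 members against 980 others among eligible groups with a descriptive name. A count of 0 in a list is thus no result about its class.

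For 4 named members, the Kallisto table holds a lobster gene of the same name, counted from the same libraries by another method and given as CPM of coding counts. The centred correlation with the noncoding share was -0.94 for LOC121853541 (Arf-GAP), -0.90 for LOC121868249 (F-box/LRR-repeat protein 2), -0.89 for LOC121853542 (cysteine dioxygenase) and -0.76 for LOC121875613 (centrosomal and chromosomal factor), against a median of -0.17 over 10752 coding genes. The matching members were chosen for r with this share in the same libraries, so a negative r in these genes largely restates the rule. With the matching member, the centred correlation was 0.97, 0.97, 0.92 and 0.81 for these genes in the same order. As CPM of coding counts, LOC121868249 had a lowest, median and highest level of 74.3, 95.3 and 139 in methylnaphthalene larvae, 79.5, 95.5 and 145 in WAF larvae and 136, 150 and 175 in control larvae.

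The comparison of treatments asks a different question from the rule, since the rule removed the group means. Differential expression was tested with edgeR's quasi-likelihood test over 10974 groups in 1 fit of all 19 larvae, and a group counted as differentially expressed (DEG) when its p after Benjamini-Hochberg adjustment was below 0.05 and its log2 fold change beyond 1.5 in either direction. All 150 members were tested, and none was a DEG in any contrast. Over all groups tested, 2.76% were DEGs with a higher and 0.0638% with a lower level in methylnaphthalene than in control larvae. For WAF against control larvae these were 0.0% and 0.118%, and for methylnaphthalene against WAF larvae 0.747% and 0.0%.

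Without the fold change threshold there was still no member with an adjusted p below 0.05 by edgeR in any contrast, while 5.6% of all groups were higher and 0.611% lower in methylnaphthalene than in control larvae. These shares were 0.082% and 0.2% for WAF against control and 2.26% and 0.082% for methylnaphthalene against WAF. At an unadjusted p below 0.05, edgeR counted 7 members for methylnaphthalene against control (4.67%, with 14.7% over all groups), 16 for WAF against control (10.7%, with 7.69% over all groups) and 21 for methylnaphthalene against WAF (14.0%, with 13.7% over all groups). With limma the unadjusted counts were 6, 27 and 23 in the same order of contrasts (with 14.2%, 8.07% and 13.7% over all groups), and with DESeq2 they were 8, 14 and 20 (with 15.8%, 8.4% and 15% over all groups). At an adjusted p below 0.05, limma counted 0 members in each contrast, and DESeq2 counted 2 higher and 1 lower for methylnaphthalene against control (with 6.93% higher and 1.26% lower over all groups) and 0 in the others. All members share the spread along the noncoding share, so these counts are not counts of independent groups.

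Most members lay a little lower in WAF than in control larvae, although none passed the test. Their median log2 fold change was -0.29, from -1.02 to 0.21, with 145 of 150 below 0, while over all groups tested the median was -0.02 and 53.0% were below 0. For methylnaphthalene against control it was 0.02, from -0.73 to 1.32, with 83 above 0, while over all groups the median was -0.03 and 45.7% were above 0. For methylnaphthalene against WAF it was 0.32, from -0.18 to 1.33, with 147 above 0, while over all groups the median was 0.01 and 51.0% were above 0. The contrasts share larvae, so they are not separate evidence of a direction. The members varied together from larva to larva, so 150 fold changes are not 150 observations, and the noncoding share itself averaged 28.9% in WAF larvae and 22.4% in control larvae. With the noncoding share as a covariate, the median for WAF against control was -0.0026, but the members were chosen for their relation to this covariate, so this value is not independent of the rule. Without WAF replicate 6, the WAF larva with the lowest noncoding share, it was -0.46, and 87 members then had an unadjusted p below 0.05 in edgeR (58.0% of members, with 15.3% over all groups), of which none had an adjusted p below 0.05.

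**Figure D5:**
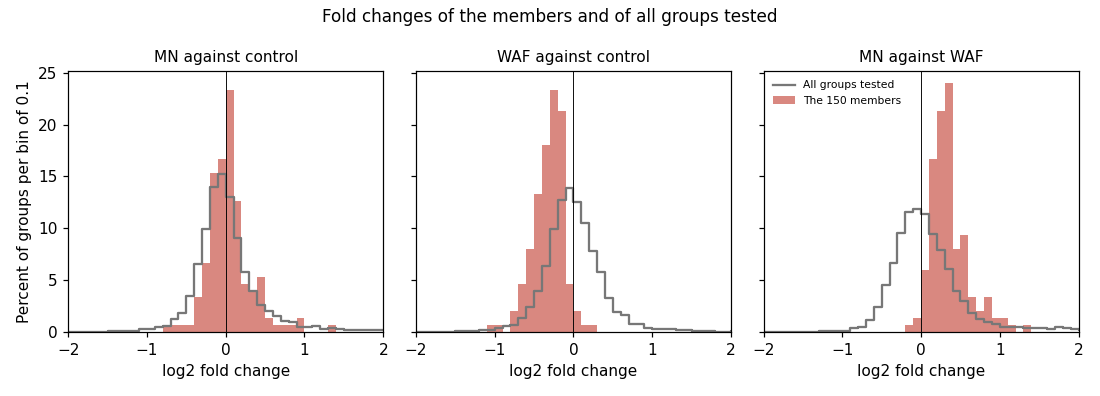
Percent of ortholog groups per bin of 0.1 (y axis) by log2 fold change (x axis, shown from -2 to 2) in the 3 contrasts, for the 150 members (red bars) and all 10974 groups tested (grey line); MN is methylnaphthalene. The members centre on 0.02 for MN against control, on -0.29 for WAF against control and on 0.32 for MN against WAF.

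The smallest adjusted p of a member in methylnaphthalene against control larvae was that of MYO1C, at 70.7 ± 48.1 CPM in methylnaphthalene larvae and 27.4 ± 10.2 CPM in control larvae (SD, n = 6 each). Its log2 fold change was 1.32 with a standard error of 0.40 (edgeR, adjusted p = 0.0558, from 1.88e-06 to 0.148 over the alternatives). The F-box/LRR-repeat protein 2 group came next, with a log2 fold change of -0.61 (standard error 0.20, edgeR adjusted p = 0.0807, from 0.000327 to 0.309 over the alternatives). Cysteine dioxygenase type 1 had a log2 fold change of 0.95 (standard error 0.31, edgeR adjusted p = 0.0866, from 4.97e-06 to 0.230 over the alternatives). The lowest values for these 3 members came from the fit with the noncoding share as a covariate. The members were chosen for their relation to this covariate, so these lowest values are not independent of the rule. In the edgeR fit of all 19 larvae without this covariate, none of the 3 had an adjusted p below 0.05. By DESeq2 on the same larvae, adjusted p-values were 0.0140 for MYO1C and 0.0384 for the F-box/LRR-repeat protein 2 group. For cysteine dioxygenase type 1 the DESeq2 adjusted p was 0.0372, and these 3 are the members DESeq2 called.

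For WAF against control larvae, the F-box/LRR-repeat protein 2 group had the smallest adjusted p, with a log2 fold change of -0.67 (standard error 0.19, edgeR adjusted p = 0.299, from 0.0298 to 0.738 over the alternatives). After it came s2f_0003183003, with 9.11, 12.4 and 23.8 CPM as lowest, median and highest level in WAF larvae and 16.1, 21.6 and 24.5 CPM in control larvae, and a log2 fold change of -0.58 (edgeR adjusted p = 0.320, from 0.0427 to 0.738 over the alternatives). The third was s2f_0001117006, with 33.1, 36.9 and 58.8 CPM in WAF larvae and 44.4, 55.7 and 60.1 CPM in control larvae, and a log2 fold change of -0.38 (edgeR adjusted p = 0.404, from 0.0816 to 0.826 over the alternatives). WAF and control larvae overlapped in each of these groups. The lowest values for the first and second came from the fit with the noncoding share as a covariate.

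Between the exposures, the carnitine O-acetyltransferase-like group had the smallest adjusted p, with a log2 fold change of 0.62 for methylnaphthalene against WAF larvae (standard error 0.20, edgeR adjusted p = 0.121, from 0.00928 to 0.306 over the alternatives). The Arf-GAP group had a log2 fold change of 1.01 (standard error 0.34, edgeR adjusted p = 0.146, from 0.00266 to 0.357 over the alternatives) and MYO1C one of 1.11 (standard error 0.38, edgeR adjusted p = 0.155). The lowest value for the Arf-GAP group came from the fit with the noncoding share as a covariate and is not independent of the rule. The contrast between the exposures moved with the larva left out, most without WAF replicate 6. At an unadjusted p below 0.05, edgeR counted 96 members without that larva (with 24.6% over all groups). It counted 55 without methylnaphthalene replicate 3 (with 20.4%) and 6 without methylnaphthalene replicate 5 (with 9.77%), against 21 with all larvae (with 13.7%). Without WAF replicate 6, 18 members had an edgeR adjusted p below 0.05, all higher in methylnaphthalene larvae (with 6.91% over all groups tested higher), and 2 were DEGs (with 3.01% over all groups higher). In edgeR, MYO1C then had a log2 fold change of 1.51 ± 0.33 (SE) at an adjusted p of 0.0065 (0.0065 to 0.421 over the alternatives), and s2f_0381039001 had 2.47 ± 0.72 (SE) at an adjusted p of 0.0417 (0.0417 to 0.844 over the alternatives).

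The spread that set the members apart could also be taken up in the fit. With the noncoding share of each larva as a covariate, edgeR counted 19 members higher and 10 lower in methylnaphthalene than in control larvae at an adjusted p below 0.05 (12.7% and 6.67% of members, with 9.79% and 7.64% over all groups tested). It counted 2 higher and 3 lower in WAF than in control larvae (1.33% and 2.0% of members, with 1.19% and 1.36% over all groups), and 8 higher and 2 lower in methylnaphthalene than in WAF larvae (5.33% and 1.33% of members, with 5.29% and 0.501% over all groups). None passed the fold change threshold. The members were chosen for their tight relation to this covariate, so their residual spread is small by construction and their p-values in this fit are not independent of the rule. In it, the log2 fold change for methylnaphthalene against control was 1.27 for MYO1C (standard error 0.14), 0.98 for cysteine dioxygenase type 1 (standard error 0.12), 1.00 for the Arf-GAP group (standard error 0.12), -0.59 for the F-box/LRR-repeat protein 2 group (standard error 0.10) and -1.11 for troponin C (standard error 0.22).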

How the data were processed

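RNA from 19 whole larvae had been sequenced, and the authors filtered reads at a minimum quality score of 25. The authors deposited expected counts from Kallisto for each RefSeq transcript of GMGI_Hamer_2.0 and raw counts per Seq2Fun ortholog group (at most 2 mismatches, matching length of at least 19, BLOSUM62 score of at least 80), both without normalization. The expected counts were used as deposited for shares, and the raw counts for tests. RefSeq annotation gave genes and classes of transcripts, and the supplementary tables gave names of ortholog groups only.

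The members, lists and tests were chosen with earlier results of these data known. Groups were tested in R 4.3.3 with edgeR 4.0.16 (TMM, quasi-likelihood test, Benjamini-Hochberg adjustment) after an abundance filter of 4 total counts and removal of the 15% of groups with the smallest interquartile range. Standard errors given for edgeR are the absolute log2 fold change divided by the square root of the quasi-likelihood F statistic. Scripts were tested on simulated data. The alternatives were limma 3.58.1 on log2 CPM with a prior count of 0.5, DESeq2 1.42.0, no TMM, no filter, filterByExpr, only the groups compared, no fold change threshold, the replicate number as a block, the noncoding share as a covariate and each larva left out. Shares were compared by exact permutation over 924 or 1716 splits.

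Named members are the 10 with the most negative r, the 10 most abundant with a name, up to 3 of each list, the 3 with the smallest adjusted p per contrast, and 3 on each side of the threshold. CORTO, ISYNA1, the Wiskott-Aldrich syndrome protein group, the steepest and flattest members and the muscle, adhesion, Rab and semaphorin subgroups were added after their values were seen. Sequences and coordinates of the members were not used here.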

Additional observations from a re-analysis of the deposited data

Results flagged for a closer look

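A single value stood apart from its group by Dixon's test at the 95% level. The group s2f_0002350002, just outside the threshold on r, had 52.8 CPM in WAF replicate 6, whereas the nearest WAF larva had 29.4 CPM, a gap of 0.587 of the whole range. Of 99 group tests on larva-level measures such as the noncoding share, on the named members and on their neighbours this was 1, or 1.01%. Chance flags about 5% of independent tests, but these tests share larvae and the members vary together, so the rates cannot be compared directly. WAF replicate 6 was also the WAF larva with the lowest noncoding share (14.9%).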

How the results depend on the processing

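Of the 150 members, other forms of the rule kept 52 (share without LOC121857831), 75 (Spearman) and 98 (Kallisto totals, a form chosen after seeing the data). The other forms kept between 102 (TMM) and 146 (mean of at least 1 CPM), of which 4 more were chosen after seeing the data: Seq2Fun percent of Kallisto, CPM without groups of at least 1000 control CPM (116 kept), LOC121857831 alone and long noncoding RNA genes alone (134 kept). With each larva left out, 99 (without WAF replicate 5) to 143 were kept. With a larva left out, the difference in noncoding share was between -1.31 (without methylnaphthalene replicate 3) and 2.66 points for methylnaphthalene against control, between 5.40 and 8.87 for WAF against control and between -7.84 and -3.87 for methylnaphthalene against WAF, and without LOC121857831 it was 0.392, 0.663 and -0.271 points in these contrasts. Members that were DEGs numbered 0 in all alternatives run except methylnaphthalene against WAF without WAF replicate 6, where they ranged up to 2. The log2 fold change of MYO1C there was 1.51. Without the fold change threshold, leaving out a larva raised the count of members at an edgeR adjusted p below 0.05, which was 0 with all larvae, to at most 3 for methylnaphthalene against control (without WAF replicate 6; 2 higher and 1 lower, with 6.27% higher and 0.669% lower over all groups). For methylnaphthalene against WAF it was 18, all higher, without WAF replicate 6 (6.91% higher over all groups) and 1 without methylnaphthalene replicate 3 (2.44%). The fit of only methylnaphthalene and control larvae gave 1 higher (5.84%). At an unadjusted p below 0.05, edgeR counted 87 members for WAF against control without WAF replicate 6 (15.3% over all groups), against 16 with all larvae (7.69%). The members' median log2 fold change was between -0.08 and 0.14 for methylnaphthalene against control and between -0.46 and -0.22 for WAF against control with a larva left out. The cause of these shifts was not tested.

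Correlations of deviations between larvae of the same replicate number ran from -0.40 to 0.63. They were positive in every contrast for replicates 1, 2 and 6 and of mixed sign for replicates 3 to 5. Within each treatment group, larvae with a noncoding share at or below 19.2% had the highest replicate numbers. The exception was control, where replicate 3 was below that value and replicate 4 above it. The order also ran across the treatment groups. In the order in which the series lists its samples, every larva from WAF replicate 6 onward was at or below 19.2%. Among the larvae listed before it, only control replicate 3 was. The part of this order in the results was not tested. With the replicate number as a block, the noncoding share differed by 1.03, 8.30 and -7.27 points for methylnaphthalene against control, WAF against control and methylnaphthalene against WAF, and the members' median log2 fold change was -0.02 and -0.42 in the first and second contrast. At an adjusted p below 0.05, the block gave 2 members higher and 1 lower for methylnaphthalene against control (5.79% and 0.829% over all groups), 1 lower for WAF against control (0.228%) and 5 higher for methylnaphthalene against WAF (4.69%), with 0 DEGs. At an unadjusted p below 0.05 it gave 81 members for WAF against control (54.0% of members, with 15% over all groups) and 69 for methylnaphthalene against WAF (46.0%, with 22.9%).

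Names cover a part of the groups, and no value here separates the noncoding share from the fraction of reads Seq2Fun assigned, since both come from the same libraries. Members at the lowest levels rest on as few as 4 counts in a larva, and intervals from counts would cover counting error only.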
